A study of Mus musculus with 4 samples.

Results

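Maturing neutrophil-like cells made up 369 of the 19546 cells kept from 2 single-cell RNA-seq experiments on mouse bone marrow progenitors that were being directed toward the T lineage in culture. The cells were chosen by their own transcript counts: a barcode was a member when it had at least 5 unique molecular identifiers (UMIs, one per captured transcript molecule) of at least 3 of the 5 genes S100a8, S100a9, Ngp, Lcn2 and Camp, at least 500 detected genes, and under 10% of its UMIs from mitochondrial genes. Experiment 1 held 24 members among 9332 kept cells (0.257%, 95% exact Clopper-Pearson interval 0.165 to 0.382). Experiment 2 held 345 members among 10214 kept cells (3.38%, 3.04 to 3.75).

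All cells came from bone marrow of Bcl2 transgenic mice, whose transgene favours blood cell survival, and were grown on OP9-Dll1, a stromal line that presents a Notch ligand, with IL-7 and Flt3-ligand at 10 ng/ml each. In the overexpression arm, progenitors of mice aged 8 to 10 weeks (B6.Bcl2 transgenic) received MSCV-Runx1-mCherry or MSCV-empty-mCherry retrovirus on day 2 and were harvested on day 4 or 6. In the knockout arm, progenitors of B6.Cas9;Bcl2 transgenic mice received E42-gRunx1-hNGFR with E42-gRunx3-mTurquoise (3 guide pairs per gene), or the matching luciferase-targeting gControl vectors, and were harvested on day 5 or 8. Living, lineage-negative, CD45+ cells carrying the vector markers were sorted, each replicate was stained with its own hashtag antibody, and the replicates of an experiment were pooled into 1 10x Chromium v3 library. The sample labels describe the cells as c-Kit-high Phase 1 T progenitors, with 4 to 5 days of culture in experiment 1 and 4 to 8 days in experiment 2. A lineage-negative sort is a gate that removes cells bearing the lineage antigens; which antigens were stained is not given in the sources used here.

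Which hashtag carried which vector, genotype or harvest day is also not given in the sources used here, so no comparison of Runx1 overexpression, Runx1 and Runx3 knockout or time was possible. Each experiment is 1 mRNA library, so no p-value is given anywhere. Levels are counts per 1000000 summed UMIs (CPM) with exact Poisson intervals, which cover counting error only and not the spread between cultures. Because the counts of 5 genes chose the members, the differences between members and other cells are a description. A gene is counted as higher or lower when its CPM differed at least 4-fold, among genes with at least 20 CPM on either side. Pairs of values written as 1 against another are members against all other kept cells, unless other cells are named.

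Neutrophils are built in the marrow in an ordered program. Promyelocytes make the primary (azurophil) granule proteins, which include myeloperoxidase and the serine proteases; myelocytes and metamyelocytes then switch to the secondary granule proteins, among them lactoferrin and cathelicidin, and the tertiary granule proteins, gelatinases and related enzymes, follow. The transcription factors PU.1 and C/EBPα act at the entry into this program, and C/EBPε is required for the secondary granule genes. Early T-lineage progenitors retain access to myeloid fates until Notch signalling closes them, and Runx factors take part on both sides of that choice.

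The promoter stretches of the 5 genes that chose the cells, and of the primary granule genes Elane and Prtn3, are printed because the results below describe how the levels of these genes varied among the members. Each is the 250 bases upstream of the start site, 5′ to 3′ on the gene's own strand, from RefSeq on GRCm38.p6. Capitals mark matches on either strand to TTGCNNAA (a C/EBP-type motif), GAGGAAGT (a PU.1-type motif) or TGTGGT (the Runx core).
S100a8: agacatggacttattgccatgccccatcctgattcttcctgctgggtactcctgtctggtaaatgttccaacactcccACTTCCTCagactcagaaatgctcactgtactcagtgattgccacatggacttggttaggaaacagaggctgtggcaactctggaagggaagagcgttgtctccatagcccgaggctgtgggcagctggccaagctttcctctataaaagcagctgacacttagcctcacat
S100a9: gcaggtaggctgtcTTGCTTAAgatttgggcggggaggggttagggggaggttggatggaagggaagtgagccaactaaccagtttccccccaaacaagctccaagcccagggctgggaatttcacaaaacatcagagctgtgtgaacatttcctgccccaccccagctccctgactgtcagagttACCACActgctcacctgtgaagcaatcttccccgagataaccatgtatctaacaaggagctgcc
Ngp: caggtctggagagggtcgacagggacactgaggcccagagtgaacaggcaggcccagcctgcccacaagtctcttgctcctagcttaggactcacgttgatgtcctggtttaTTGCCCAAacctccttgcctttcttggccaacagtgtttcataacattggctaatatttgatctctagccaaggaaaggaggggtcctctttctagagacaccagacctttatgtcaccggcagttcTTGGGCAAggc
Lcn2: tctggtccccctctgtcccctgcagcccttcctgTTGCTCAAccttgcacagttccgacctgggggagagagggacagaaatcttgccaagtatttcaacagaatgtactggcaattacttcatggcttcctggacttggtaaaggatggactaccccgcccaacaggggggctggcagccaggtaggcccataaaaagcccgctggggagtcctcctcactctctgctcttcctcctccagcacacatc
Camp: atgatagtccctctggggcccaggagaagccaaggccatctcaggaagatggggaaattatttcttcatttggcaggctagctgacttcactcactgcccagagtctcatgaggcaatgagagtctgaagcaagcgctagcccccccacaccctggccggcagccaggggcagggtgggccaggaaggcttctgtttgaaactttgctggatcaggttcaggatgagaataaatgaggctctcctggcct
Elane: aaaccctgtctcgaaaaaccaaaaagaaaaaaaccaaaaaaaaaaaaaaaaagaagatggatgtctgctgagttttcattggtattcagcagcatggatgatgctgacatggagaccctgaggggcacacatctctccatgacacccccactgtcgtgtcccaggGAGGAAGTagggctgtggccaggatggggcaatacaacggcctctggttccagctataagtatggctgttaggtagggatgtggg
Prtn3: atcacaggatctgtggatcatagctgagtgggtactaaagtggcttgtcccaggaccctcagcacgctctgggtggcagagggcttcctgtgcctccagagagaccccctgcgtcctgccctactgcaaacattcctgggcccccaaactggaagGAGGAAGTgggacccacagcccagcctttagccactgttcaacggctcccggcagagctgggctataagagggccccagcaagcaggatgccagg
These lie at chr3:90668821-90669070 (plus strand), chr3:90695722-90695971 (minus), chr9:110419558-110419807 (plus), chr2:32387740-32387989 (minus), chr9:109849457-109849706 (minus), chr10:79886062-79886311 (plus) and chr10:79879417-79879666 (plus). The C/EBP-type letters stood 138 and 11 bases upstream of the Ngp start, 216 upstream of Lcn2 and 236 upstream of S100a9. PU.1-type letters stood 85 bases upstream of Elane, 95 upstream of Prtn3 and, reversed, 172 upstream of S100a8, and the only Runx core among the 7 stretches was the reversed match 64 bases upstream of S100a9. Camp held none of the 3.

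Across the granule lists, promoters of the same length with the C/EBP-type letters numbered 4 of 11 for the secondary granule (Ltf, Ngp, Lcn2, Fcnb), 4 of 5 for the tertiary granule (Mmp8, Retnlg, Adam8, Slpi) and 0 of 7 for the primary granule, against 10.8% of the 27025 genes with a RefSeq promoter. The PU.1-type letters occurred in 4 of 7 primary (Mpo, Elane, Prtn3, Ctsc), 2 of 11 secondary (Olfm4, Itgb2l) and 1 of 5 tertiary granule promoters, against 2.79% of all genes. The Runx core occurred in 2 of 7 primary (Ctsg, Srgn), 1 of 11 secondary (Lyz2) and 0 of 5 tertiary granule promoters, against 15.9% of all genes. A match is only a run of letters in this window and does not show binding.

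Markers that the rule did not name went with the label. Chil3, the chitinase-like protein of maturing granulocytes and some macrophages, stood at 4363 CPM (4319.7 to 4407) in experiment 2 members and 3.72 CPM in the other cells, with at least 1 UMI in 310 of 345 members. Ltf, lactoferrin, was at 2002 against 1.91 CPM. Cebpe, which encodes C/EBPε, was at 356 (344 to 369) against 1.73 CPM and had a UMI in 315 members. After every cell was thinned to 3000 UMIs, Chil3 was seen in 80.8% of members and 0.459% of the cells with at least 5 UMIs of the T-cell gene Cd3g, which should lack it, and Cebpe in 62.8% and 0.230%. The unthinned median depths of these 2 sets were 20147 and 21507 UMIs. S100a8 was seen in 4.94% of the same thinned T-marked cells. Free RNA, doublets and low expression were not told apart there. The T-marked cells were taken from the non-members, so barcodes that met the rule had already been left out.

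The rule drew its line inside a continuum. In experiment 2, 212 members met the minimum for all 5 genes, 55 for 4 and 78 for 3. All 345 met it for S100a8, 344 for S100a9, 330 for Lcn2, 280 for Ngp and 215 for Camp. Just outside, with a third-ranked gene at 3 or 4 UMIs, lay 18 cells whose median counts were 128.5 UMIs of S100a8, 79.5 of S100a9, 3.5 of Lcn2 and 0 of Ngp and of Camp. Just inside, with 5 to 9 UMIs of that gene, were 21 members with medians of 251 for S100a8, 37 for S100a9, 8 for Lcn2 and 0 for Ngp and Camp. Chil3 was at 64.3 CPM in the former, 1248 CPM in the latter and 4725 CPM in the 324 members further inside. In experiment 1, 8 cells lay just outside and 5 just inside.

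Barcode quality differed between members and the rest in experiment 2. HTODemux called 105 of 345 members hashtag doublets (30.4%, 25.6 to 35.6) against 20.2% of the other cells (19.4 to 21.0). A further 21 members carried no called hashtag, and 219 carried 1. Median depth was 20147 UMIs in members (range 1226 to 103607) and 26768 in the others. At an equal 3000 UMIs per cell, members had a median of 1119 detected genes and other cells 1299, with 17 and 139 shallower cells left out. The libraries shared 39 barcode sequences, none of them a member in either. Members (219) and other cells were also both restricted to those with 1 hashtag. The log2 ratios of 126 list genes then moved outside the counting interval of the members' level, and 22 stayed inside it. In members, Chil3 went from 4363 to 5867 CPM, Ltf from 2002 to 2621, Elane from 2648 to 3172 and S100a8 from 55799.8 to 71333.

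The S100 alarmins, calcium-binding proteins that fill the neutrophil cytosol, held a large part of these cells' transcripts. S100a8 and S100a9 together took a median of 14.8% of a member's UMIs in experiment 2, from 0.0333% to 42.5%, and in experiment 1 a median of 3.15% (from 0.317% to 32.1%). Their levels in experiment 2 were 55799.8 against 53.5 CPM and 57131 against 33.2 CPM. The 5 rule genes held 13.9% of all UMIs of these members, which lowers every other gene on the CPM scale: leaving them out of the totals moved log2 ratios up by 0.22 in experiment 2 and 0.07 in experiment 1. With them in, the median log2 ratio over all genes tested in experiment 2 was -0.30.

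In experiment 2, 185 of the 5564 genes tested were at least 4-fold higher in members (3.32%) and 30 at least 4-fold lower (0.539%). With hashtag doublets and untagged cells left out these counts were 229 and 130, and with the rule genes left out of the totals they were 216 and 10, so the count of lower genes depends on both. All 12 secondary granule genes were among the higher genes, 3 of which (Ngp, Lcn2 and Camp) are rule genes. Camp, the cathelicidin antimicrobial peptide precursor, was at 6152 against 1.97 CPM, Ngp at 14778 against 4.46 CPM and Lcn2, which binds bacterial siderophores, at 5286 against 4.37 CPM. Among those the rule did not use, Cd177, a neutrophil surface glycoprotein, was at 106 against 0.0732 CPM, Lyz2, lysozyme, at 5029 against 82.2 CPM and Pglyrp1, a peptidoglycan-binding protein, at 1246 against 10.3 CPM. Fcnb was at 189 against 0.108 CPM and Itgb2l at 64.4 against 0.0593 CPM. Olfm4 was uneven: it was at 49.5 CPM, but 21 members had a UMI and 10 of them held 80.9% of its counts.

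Primary granule genes were high in the same set of cells. Of 8, 5 were at least 4-fold higher in members: Mpo, myeloperoxidase, at 1579 against 45.8 CPM, the serine proteases Elane at 2648 against 25.8 CPM, Prtn3 at 3021 against 257 CPM and Ctsg at 1383 against 131 CPM, and Ms4a3, a granulocyte-monocyte progenitor gene, at 764 against 25.8 CPM. Ctsc, the dipeptidase that activates these proteases, Prss57 and Srgn differed less, at 106 against 63.5 CPM, 115 against 55.6 CPM and 877 against 641 CPM. The other cells also held primary granule transcripts. Among them were 236 cells of experiment 2 with at least 5 UMIs of at least 3 of Mpo, Elane, Prtn3 and Ctsg, which serve below as a granulocyte progenitor comparator.

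**Figure D1:**
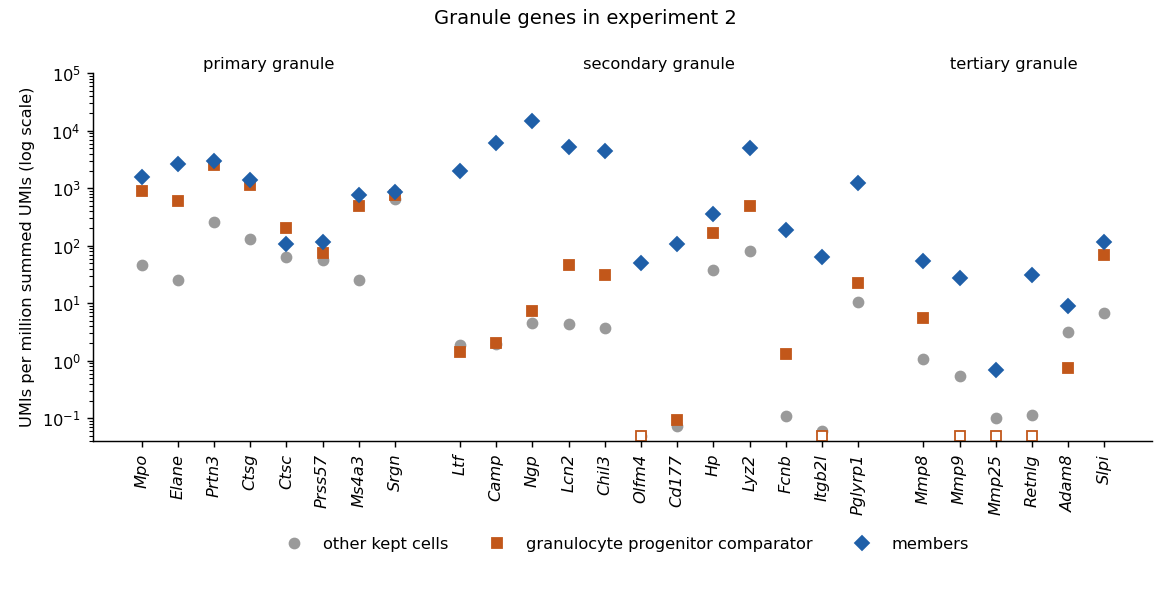
Levels of granule genes in members, granulocyte progenitor comparator cells and all other kept cells, in CPM on a log axis, for experiment 2; points are summed values with no error bar, and open markers at the base stand for 0. Most secondary granule genes separate members from the progenitor comparator cells (Ltf 2002 against 1.41 CPM in experiment 2), Hp less so (359 against 166 CPM). Most primary granule genes lie closer together (Prtn3 3021 against 2537 CPM), Elane less so (2648 against 599 CPM). Mpo, Elane, Prtn3 and Ctsg also chose the comparator cells.

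Against these granulocyte progenitor comparator cells, 156 of 5367 genes tested were at least 4-fold higher in members (2.91%) and 5 at least 4-fold lower (0.0932%). Of the granule lists, 11 of 12 secondary and 1 of 8 primary granule genes were higher. Ltf was at 2002 against 1.41 CPM, Camp at 6152 against 2.06 CPM, Ngp at 14778 against 7.41 CPM and Chil3 at 4363 against 31.0 CPM, whereas Mpo was at 1579 against 895 CPM, Prtn3 at 3021 against 2537 CPM and Ctsg at 1383 against 1144 CPM. Elane was the primary granule gene past 4-fold, at 2648 against 599 CPM. Cebpe was at 356 against 32.9 CPM. As Mpo, Elane, Prtn3 and Ctsg chose the progenitor comparator cells and the 5 rule genes kept them apart from members, the values of those 9 genes are set in part by these choices. Markers of other cell types moved in the same comparison. All 5 OP9 stroma genes tested were at least 4-fold higher in members, with Col1a1 at 81.0 against 8.44 CPM, Sparc at 76.6 against 5.91 CPM and Cxcl12 at 96.3 against 8.35 CPM, although 97.8% of the members' stroma counts lay in 10 cells. The basophil genes Prss34 and Mcpt8, at 0.797 against 353 CPM and 16.3 against 349 CPM, and the eosinophil gene Prg2, at 1.02 against 159 CPM, were at least 4-fold lower. Their part in the result was not tested.

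Tertiary granule and late neutrophil genes were present at lower levels and in fewer members. All 4 tertiary granule genes that could be tested, of 6 listed, were at least 4-fold higher: the collagenase Mmp8 at 54.2 against 1.08 CPM with a UMI in 51 members, the gelatinase Mmp9 at 27.0 against 0.537 CPM in 74, Retnlg, a resistin-like secreted protein, at 30.5 against 0.115 CPM in 32, and the protease inhibitor Slpi at 115 against 6.69 CPM. The 10 members with most held 84.7% of the Retnlg counts. Of 12 late neutrophil genes tested, of 16, 9 were higher, among them Wfdc21 at 1299.7 against 1.21 CPM in 331 members, Ly6g, the antigen of mature mouse neutrophils, at 52.4 against 0.0209 CPM in 110, the chemokine receptor Cxcr2 at 25.7 against 4.33 CPM and the formyl peptide receptor Fpr2 at 22.7 against 0.237 CPM. Il1b was at 17.9 against 16.0 CPM. Against the granulocyte progenitor comparator cells, Slpi was at 115 against 68.1 CPM and Cxcr2 at 25.7 against 8.72 CPM, both under 4-fold. Mmp8, Mmp9 and Retnlg were past 4-fold there too.

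Genes of neutrophil function differed to unequal extents. In the NADPH oxidase, which makes superoxide, 3 subunits passed 4-fold: Cybb, the catalytic subunit, at 389 against 16.1 CPM, and the cytosolic organizers Ncf1 at 191 against 35.3 CPM and Ncf4 at 247 against 50.8 CPM, while Cyba was at 1416 against 413 CPM and Rac2 at 630.2 against 390.3 CPM. Of 9 S100 and annexin genes, 4 were higher, S100a8, S100a9, Anxa1 (669 against 42.5 CPM) and Anxa3, and S100a4 and S100a10 stood on the other side at 178 against 412 CPM and 183 against 440.1 CPM. Of 12 surface and adhesion genes tested, 6 were higher, with Itgam, the CD11b chain, at 121 against 6.90 CPM and Ceacam1 at 83.8 against 2.44 CPM. Csf3r, the receptor for the neutrophil growth factor G-CSF, was at 38.2 against 2.29 CPM and Csf2ra at 83.4 against 12.2 CPM. Against the granulocyte progenitor comparator cells, Cybb was the 1 of 6 oxidase genes past 4-fold, at 389 against 69.2 CPM. Under 4-fold there were Ncf1 at 191 against 64.8 CPM, Ncf4 at 247 against 104 CPM, Csf3r at 38.2 against 11.2 CPM and Csf2ra at 83.4 against 28.5 CPM. Receptors for the factors that were in the medium or that mark early progenitors were lower than in all other kept cells. Kit was at 16.6 against 35.0 CPM, Il7r at 3.53 against 18.9 CPM and Flt3 at 1.59 against 5.08 CPM. Il7r and Flt3 were under the 20 CPM minimum on both sides. In the granulocyte progenitor comparator cells Kit was at 23.2 CPM, Il7r at 2.25 and Flt3 at 2.16 CPM.

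Among 10 granulocyte transcription factor genes tested, Cebpe and Cebpd (136 against 14.2 CPM) passed 4-fold. Against the granulocyte progenitor comparator cells Cebpd was at 136 against 50.7 CPM, and only Cebpe passed 4-fold. The values that follow are again against all other kept cells. Cebpb was at 165 against 65.5 CPM, Cebpa at 23.4 against 8.04 CPM, Gfi1, a repressor needed for neutrophil formation, at 32.0 against 10.4 CPM and Spi1, which encodes PU.1, at 478 against 197 CPM. Irf8, which favours monocyte and dendritic fates, was at 58.4 CPM in members, and Myb was at 91.6 against 163 CPM. None of the 4 Runx family genes passed 4-fold in either direction. Over all genes tested 3.32% were higher and 0.539% lower, so a list this short would seldom hold a call. Runx1, a target of both vector designs, was at 52.9 against 72.3 CPM, Runx3 at 49.2 against 119.8 CPM, Runx2 at 12.2 against 22.3 CPM and the shared partner Cbfb at 33.9 against 40.5 CPM. Among cells with 1 hashtag, Runx3 was at 26.6 CPM in members and 119 CPM in the others, past 4-fold, while Runx1 was at 50.5 and 68.5 CPM. Counts of Runx1 include any transcripts of the introduced vector that align to the gene, and a disrupted gene can still be transcribed.

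T-lineage transcripts were low against all other kept cells, and lower still once hashtag doublets were left out. The 15 T-lineage genes summed to 243 CPM in members and 877 CPM in the other cells, to 443 CPM in the doublet members, and to 66.9 CPM in members with 1 hashtag, where 3 of the 15 genes had no UMI and 1 of 219 cells exceeded 10 UMIs per 10000. Cd3g, part of the T-cell receptor complex, was at 41.9 against 193 CPM, with 90.5% of its member counts in 10 cells, and at 1.57 CPM in members with 1 hashtag. Tcf7, an early Notch target, was at 32.7 against 102 CPM and in members with 1 hashtag at 6.04 CPM. Bcl11b, the T commitment factor, had no UMI in members with 1 hashtag and 28.7 CPM in the other cells with 1. Gzma, the granzyme of cytotoxic and innate lymphoid cells, was at 266 against 1112 CPM. Bcl2 was at 32.6 against 105 CPM (12.3 against 107 CPM with 1 hashtag). The transgene was not separated from the endogenous gene. None of the 5 T-lineage genes tested against the granulocyte progenitor comparator cells differed 4-fold. Over all genes tested there, 2.91% were higher and 0.0932% lower. Tcf7 was at 32.7 against 28.8 CPM in that comparison, Cd3g at 41.9 against 10.7 CPM, Gzma at 266 against 255 CPM and Bcl2 at 32.6 against 59.3 CPM.

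Markers of other cell types varied. Of 5 monocyte genes tested, Ly6c2 (461 against 7.20 CPM) and F13a1 (38.7 against 3.62 CPM) were higher, and the defining receptor genes Csf1r and Ccr2 were at 29.5 against 21.7 CPM and 37.1 against 45.8 CPM. Of 4 mast cell and basophil genes tested, Hdc, histidine decarboxylase, was higher at 99.1 against 5.67 CPM, while Mcpt8 and Prss34 were at least 4-fold lower, at 16.3 against 101 CPM and 0.797 against 69.1 CPM. In the granulocyte progenitor comparator cells Hdc was at 32.3 CPM, Ly6c2 at 112, F13a1 at 48.9, Csf1r at 50.2, Ccr2 at 109 and Ms4a6c at 344 CPM. Ms4a6c was at 102 CPM in members. Of these monocyte genes, only Ly6c2 was at least 4-fold higher in members than in the comparator cells. The 9 OP9 stroma genes summed to 448 CPM in members and 670.1 CPM in the other cells, and 10 members held 97.8% of those counts. No eosinophil gene reached the 20 CPM minimum. The part of these cell types in the members' values was not tested.

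A subset of members had lower secondary granule and higher monocyte gene levels than the rest. The 65 members of experiment 2 with under 5 UMIs of Ngp, a division made after the values were seen, entered through S100a8, S100a9 and mostly Lcn2, and 1 of them reached 5 UMIs of Camp. Compared in the order of low-Ngp and the 280 high-Ngp members, Ltf was at 22.4 and 2789 CPM, Cebpe at 99.7 and 458 CPM and Chil3 at 2203 and 5222 CPM. In the same order the monocyte genes Ms4a6c, F13a1, Ccr2 and Csf1r were at 268 and 35.9 CPM, 108 and 11.3 CPM, 95.7 and 13.8 CPM and 59.6 and 17.5 CPM, and Irf8 at 121 and 33.6 CPM. Ly6c2 was at 380.2 and 492 CPM. Low-Ngp members are described less closely by the label neutrophil-like. They numbered 41 with 1 hashtag, 23 doublets and 1 without a hashtag. In experiment 1, where 8 of 24 members had under 5 UMIs of Ngp, the same order gave 0 and 627 CPM for Ltf and 134 and 326 CPM for Cebpe, but 1788 and 1231 CPM for Chil3 and 45.9 and 54.7 CPM for Ms4a6c.

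**Figure D2:**
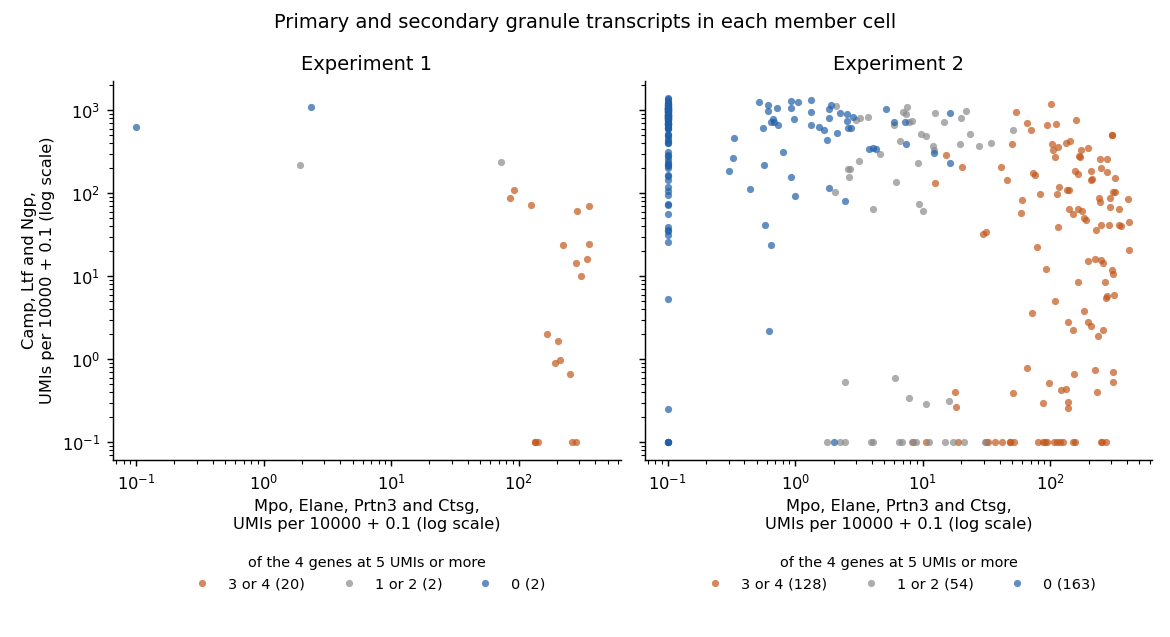
Each point is a member cell of experiment 1 (left) or 2 (right), coloured by class: the UMIs per 10000 + 0.1 of the 4 primary granule genes Mpo, Elane, Prtn3 and Ctsg are set against those of Camp, Ltf and Ngp on log axes. Cells spread from high primary and low secondary counts to the reverse; 128 members of experiment 2 had at least 5 UMIs of 3 or 4 of the primary granule genes and 163 of none.

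Members ranged from cells rich in primary granule transcripts to cells without them. In experiment 2, 128 members (37.1%, 32.0 to 42.4) had at least 5 UMIs of 3 or 4 of Mpo, Elane, Prtn3 and Ctsg and are called primary-rich; 54 (15.7%) had 1 or 2 such genes and are called intermediate; 163 (47.2%, 41.9 to 52.7) had none and are called primary-poor. These are ranges of a count and not cell types, and they were set after the values were seen. Median depth was 33294, 22711 and 8470 UMIs, so a fixed count is harder to reach in the primary-poor cells; at 2 UMIs per 10000 in place of 5 UMIs the classes held 129, 60 and 156 members. The primary granule genes, which set the classes, gave 4662, 239 and 6.04 CPM for Elane and 2813, 35.9 and 5.18 CPM for Mpo, in the order primary-rich, intermediate and primary-poor.

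Genes that the classes did not use ran in both directions along the same order. Ltf was at 62.4, 1588 and 6388 CPM, Camp at 1392, 7703 and 15187 CPM, Ngp at 7178, 16717 and 29568 CPM, Lcn2 at 1331, 6061 and 13141 CPM and Cd177 at 12.0, 92.3 and 315 CPM. Fcnb and Hp, both secondary granule genes by list, did not follow this course, at 192, 206 and 169 CPM and 333, 406 and 382 CPM. Camp, Ngp and Lcn2 are rule genes, unlike Ltf and Cd177. A fixed UMI minimum asks for a higher rate in the shallower primary-poor cells, so the values of these rule genes are set in part by the choice of members. The tertiary granule genes were highest in the primary-poor cells: Mmp8 was at 1.02, 19.9 and 189.9 CPM, Mmp9 at 1.02, 4.48 and 97.1 CPM, and Retnlg at 0, 3.20 and 114 CPM. Late genes followed, with Ly6g at 6.32, 49.3 and 152 CPM, Cxcr2 at 6.93, 30.8 and 62.1 CPM, Fpr2 at 1.83, 13.5 and 72.9 CPM and Ifitm6 at 53.2, 258 and 1001 CPM. The low-Ngp members described above were spread unevenly over the classes. They numbered 38, 19 and 8 in the same order, and the high-Ngp members 90, 35 and 155. Ltf was at 22.4 CPM in low-Ngp and 2789 CPM in high-Ngp members, so this mixture enters the class values. Its part in their course was not tested.

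The alarmins and an adhesion gene also climbed toward the primary-poor cells. S100a8 was at 35891, 56304 and 97625 CPM, Anxa1, a regulator of neutrophil migration, at 279, 643 and 1512 CPM and the CD11b gene Itgam at 71.7, 122 and 224 CPM. S100a8 is a rule gene too, so its values are also set in part by the choice of members. Transcription factor genes diverged. Cebpa was at 36.7, 7.69 and 6.04 CPM and Gfi1 at 49.5, 9.61 and 9.93 CPM, both highest in primary-rich cells, whereas Cebpe was at 312, 347 and 455 CPM and Spi1 at 486, 443 and 484 CPM. Mxd1, an antagonist of Myc, was at 16.7, 34.0 and 90.2 CPM and Myc at 34.2, 14.1 and 10.8 CPM. Runx1 varied little, at 53.2, 46.1 and 57.0 CPM.

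**Figure D3:**
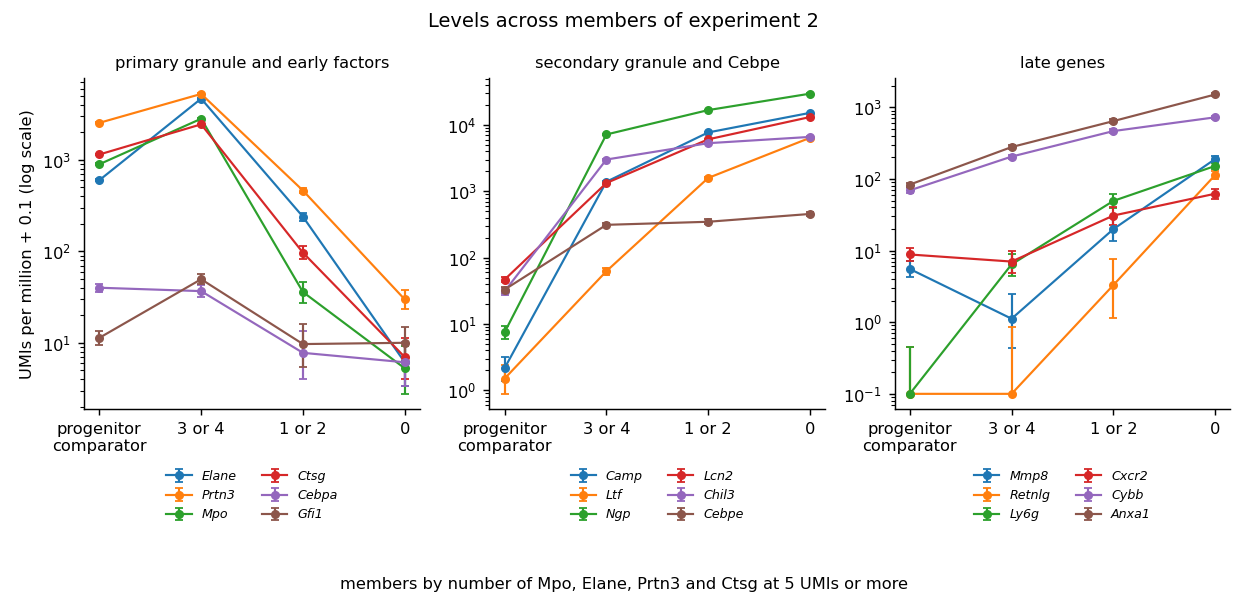
Levels of genes from each group in primary-rich, intermediate and primary-poor members of experiment 2, with granulocyte progenitor comparator cells at the left, in CPM + 0.1 on a log axis, with 95% exact Poisson intervals (counting error only). From primary-rich to primary-poor, lines fall for Elane and Mpo, which define the classes, and climb for Ltf (62.4, 1588 and 6388 CPM) and Mmp8 (1.02, 19.9 and 189.9 CPM), which do not.

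Cell cycle genes were kept in many members. The 12 G2 and mitosis genes summed to 1943 CPM in members and 1946 CPM in the other cells, and with the rule genes left out of the totals to 2257 and 1946 CPM, so the side that is higher depends on the scaling. The 12 S phase genes summed to 1289.6 and 1706 CPM, or 1498 and 1706 CPM on the other scale. None of the 24 genes differed 4-fold, where 3.32% of all genes tested were higher and 0.539% lower, so few calls could be looked for. Per cell, the median of the G2 and mitosis sum was 15.4 UMIs per 10000 in primary-rich, 16.2 in intermediate and 3.18 in primary-poor members. The primary-poor cells varied: 52 of 163 had none of these transcripts, 62 had at least 10 per 10000 and the rest lay between. Mki67, the proliferation antigen, reached 5 UMIs in 32 primary-poor cells and in 138 members in all. A fixed count is harder to reach in the shallower primary-poor cells. Hashtag doublets stayed in these counts, and 109 of the 163 primary-poor cells carried 1 hashtag. The part of doublets was not tested.

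Genes outside the lists with at least 100 CPM in members were also ranked by their ratio. Of the 15 with the largest ratios, Orm1, an acute-phase glycoprotein, was at 256 against 0.164 CPM, Lrg1 at 199 against 0.373 CPM, complement C3 at 146 against 2.15 CPM, the leukotriene B4 receptor Ltb4r1 at 162 against 6.18 CPM, glycogen phosphorylase Pygl at 137 against 4.99 CPM, Mgst1 at 343 against 17.4 CPM, Mcemp1 at 125 against 0.377 CPM, and the stefin-family genes BC100530, Gm5483 and Stfa1 at 213 against 0.0872 CPM, 399.7 against 0.248 CPM and 353 against 0.492 CPM. Stefins are cysteine protease inhibitors encoded by near-identical copies on chromosome 16, so the split of reads among them is uncertain. They also rest on few cells: BC100530 had a UMI in 29 members, Stfa1 in 47 and Gm5483 in 52, and the 10 members with most held 93.0%, 88.0% and 64.5% of the counts. On the lower side, beside Gzma, were Crip1 (424 against 1546 CPM), Ptprcap (119 against 422 CPM) and the γδ and β T-cell receptor constant genes Tcrg-C2 (31.5 against 129 CPM) and Trbc2 (176 against 691 CPM).

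Late genes overlapped in part. Stfa2l1 reached 5 UMIs in 41 of the 345 members, 35 of them primary-poor, and Gm5483 in 33, of which 27 also had 5 UMIs of Stfa2l1. Retnlg reached 5 UMIs in 9 members, all primary-poor; 8 of these also had 5 UMIs of Mmp8 and 1 of Stfa2l1. Of the 39 members with 5 UMIs of Mmp8, 9 had 5 of Stfa2l1. Low levels of each gene in shallow cells limit how often 2 of them can be seen together.

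Members of experiment 1 were mostly primary-rich. Of its 24 members, 20 were primary-rich (83.3%, 62.6 to 95.3), 2 intermediate and 2 primary-poor. In all 24, Elane was at 5373, Prtn3 at 7128 and Mpo at 3715 CPM, each above its experiment 2 level in members, while Camp was at 1115 CPM with a UMI in 6 cells and Ltf at 382 CPM, also in 6. Chil3 was at 1449 against 0.812 CPM and Cebpe at 251 against 1.99 CPM. Among 5948 genes tested there, 178 were at least 4-fold higher (2.99%) and 154 at least 4-fold lower (2.59%). The experiments differ in labelled culture time and in library, and these cannot be told apart.

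Members were unevenly spread over the 8 hashtags of experiment 2. Numbered in the order of the deposited tag matrix, hashtag 6 had 67 of 976 cells (6.86%, 5.36 to 8.64) and hashtag 2 had 54 of 998 cells (5.41%, 4.09 to 7.00). Hashtag 5 followed with 33 of 911 cells (3.62%, 2.51 to 5.05), hashtag 8 with 28 of 975 cells (2.87%, 1.92 to 4.12) and hashtag 1 with 21 of 872 cells (2.41%, upper bound 3.66). The lowest were hashtag 4 with 11 of 1011 cells (1.09%, 0.544 to 1.94) and hashtag 3 with 5 of 1063 cells (0.470%, 0.153 to 1.09), and hashtag 7 had 0 of 1016 cells (upper bound 0.362%; 3 counts would be 0.295%). At a positive quantile of 0.95, hashtag 7 had 1 of 822 cells, and 14 of the doublet members had it as their highest tag. The intervals of hashtags 2 and 6 overlapped, as did those of 1, 5 and 8; both leading intervals lay above those of hashtags 1, 3, 4 and 7. With a simpler call, in which the top tag had to hold 3 times the second, hashtag 2 had 21 of 1025 cells (2.05%) and hashtag 3 had 15 of 1312 (1.14%), so the rank of hashtag 2 depends on the call.

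Hashtags held different mixtures of the classes. Hashtag 6 had 34 primary-rich, 7 intermediate and 26 primary-poor members and hashtag 2 had 26, 10 and 18, whereas hashtag 8 had 5, 1 and 22, hashtag 5 had 9, 3 and 21, and hashtag 4 had 0, 1 and 10. Hashtag 1 had 4, 8 and 9 members in these classes, and 20 of the 21 untagged members had hashtag 1 as their highest tag. The granulocyte progenitor comparator cells ranked otherwise: their share was highest in hashtag 1 (5.62%), with 1.90% in hashtag 2 and 2.56% in hashtag 6. In experiment 1, hashtag 2 had 10 of 1164 cells (0.859%, 0.413 to 1.57), and the other hashtags had 0 to 3 members each.

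**Figure D4:**
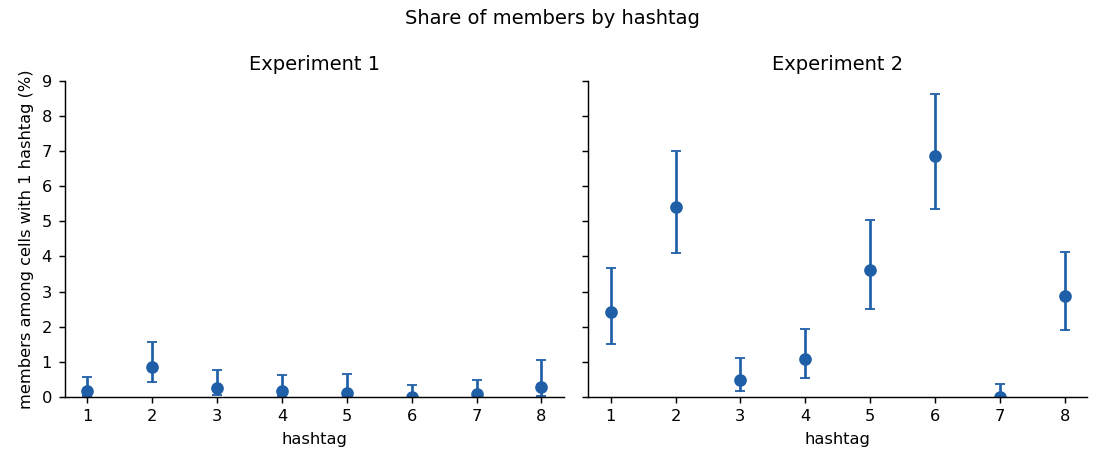
Share of kept cells with 1 hashtag that were members, in percent, for hashtags 1 to 8 of each experiment, with 95% exact Clopper-Pearson intervals. In experiment 2, hashtags 2 and 6 lead at 5.41% and 6.86%, and hashtag 7 has 0 members; the condition behind each hashtag is not known.

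The 2 hashtags with the most members held primary-rich cells of different composition. Elane, at 6473 CPM in hashtag 2 and 5617 CPM in hashtag 6, and S100a8, at 37082 CPM in hashtag 2 and 41072 CPM in hashtag 6, were similar in the 26 and 34 primary-rich members. Camp was at 5204 CPM in hashtag 2 (5018 to 5395, 17 members with a UMI) and 134 CPM in hashtag 6 (115 to 155, 11 members), and Wfdc21 was at 2619.7 CPM in hashtag 2 and 399.6 CPM in hashtag 6. Chil3 and Ctsg ran the opposite way, at 383 CPM in hashtag 2 and 4385 CPM in hashtag 6 and at 884 CPM in hashtag 2 and 3892 CPM in hashtag 6. Per cell, the median of Chil3 was 0.705 and 29.1 UMIs per 10000, of Ctsg 1.51 and 41.0, of Wfdc21 29.1 and 3.68, and of Camp 2.22 and 0. The Camp sums rest on few cells, with 74.0% and 94.4% of counts in 3 members. Without the 3 members with most UMIs of each gene, Camp was at 1464 and 8.33 CPM, Wfdc21 at 2252 and 332, Chil3 at 109 and 3751, and Ctsg at 345 and 3644. With the simpler hashtag call, which left 12 primary-rich members in hashtag 2, Camp was at 1893, Wfdc21 at 1686, Chil3 at 67.9 and Ctsg at 803 CPM there. These genes were singled out after their values were seen, and each hashtag is 1 culture, so no test was possible.

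**Figure D5:**
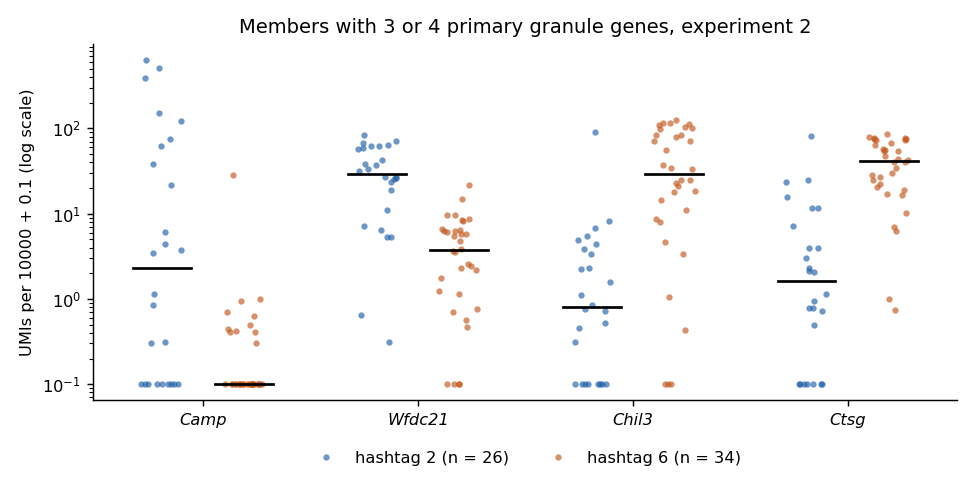
Each point is a primary-rich member of experiment 2 in hashtag 2 (26 cells) or hashtag 6 (34 cells), with UMIs per 10000 + 0.1 of Camp, Wfdc21, Chil3 and Ctsg on a log axis; bars mark medians. Wfdc21 has the higher median in hashtag 2 (29.1 against 3.68), and Chil3 (0.705 against 29.1) and Ctsg in hashtag 6.

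Among primary-poor members the hashtags with at least 10 such cells were 2, 4, 5, 6 and 8, with 18, 10, 21, 26 and 22 cells. Ltf, at 5418, 9241, 10116, 7097 and 9001 CPM in that order, and Cebpe, at 633, 654, 552, 542 and 418 CPM, were closer together. The stefins were spread wider: Stfa2l1 was at 39.6, 463, 34.0, 467 and 3615 CPM, with a UMI in 18 of the 22 cells of hashtag 8, and Gm5483 was at 0, 681, 4.25, 728 and 7713 CPM, with a UMI in 17 of the 22. Chil3 was at 2958, 4007, 7172, 9068 and 14252 CPM, lowest in hashtag 2 (with the simpler call it was lowest in hashtag 4, at 1920.1 CPM), and Wfdc21 at 6304, 4498, 3272, 1504 and 2989.8 CPM, highest in hashtag 2. Without the 3 members with most UMIs, Gm5483 was at 6036 CPM in hashtag 8 and at 30.4 CPM in hashtag 6, and Stfa2l1 at 2928 and 49.1 CPM. BC100530 and Stfa1 rested more on 3 cells: in hashtag 8 they went from 3977 to 1036 CPM and from 5220.1 to 1893 CPM without them. With the simpler hashtag call, Stfa2l1 was at 344 CPM in hashtag 2, 144 in hashtag 4 and 2695 in hashtag 8, and Gm5483 at 1056, 216 and 6362 CPM. Retnlg was at 744, 0, 42.5, 74.8 and 65.6 CPM, but 3 cells held 97.9% of its counts in hashtag 2.

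Runx transcripts, which the vectors of the study act on, were compared within the hashtags that had enough members. Runx1 in members and in the other cells of the same hashtag was at 45.9 and 56.2 CPM in hashtag 1, 11.8 and 36.7 in hashtag 2, 52.7 and 57.8 in hashtag 5, 61.2 and 107 in hashtag 6, and 82.8 and 122 in hashtag 8. The order of hashtags by Runx1, lowest in 2 and highest in 8, was shared by members and other cells among these 5, though the members' intervals of hashtags 1, 5, 6 and 8 overlapped. In hashtags 1 and 5 the members' interval included the level of the other cells. The member values rest on 17, 10, 31, 121 and 43 UMIs. Runx3 in members was at 40.5, 9.45, 23.8, 32.9 and 19.3 CPM, and in the other cells at 118, 87.9, 129, 142 and 137 CPM. Hashtag 4, with 11 members, had 1 UMI of each. No condition is assigned to a hashtag from these values.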

How the data were processed

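Cells of mouse bone marrow cultures were profiled as 2 pooled 10x Chromium v3 libraries, each with a matching library of 8 hashtag tags. The values used are UMI counts per gene and barcode, and tag counts per barcode, as deposited by the authors; Cell Ranger 3.0.0 and mm10/GRCm38 are named in the submitters' processing notes, and filters on the barcodes before deposit are not given in the sources used here. The matrices held 9967 and 10556 barcodes with 246706921 and 296727412 UMIs in experiments 1 and 2.

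Members were taken by the rule stated above from barcodes that passed its gene and mitochondrial limits, and hashtags were called with HTODemux (Seurat 5.3.0, R 4.3.3; positive quantile 0.99). Hashtag doublets stayed in unless stated, and doublets within a hashtag cannot be seen. Raw counts were summed per group and given per 1000000 UMIs (CPM) with 95% exact Poisson intervals; shares have exact Clopper-Pearson intervals (numpy 2.4.6, scipy 1.17.1, pandas 2.3.3, figures with matplotlib 3.10.9). Intervals and the floor of 3 counts cover counting error only. Fold calls were tested on simulated sums. Thinning was not tested in that way.

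The members, the 26 gene lists with 200 genes, and the comparisons were chosen with earlier results of these data known, so agreement with the lists is no independent support. The result of 1 list gene is not reported here. Named genes are list members, plus, outside the lists, the 15 with the largest ratios among those with at least 100 CPM in members of experiment 2 and the 10 with the smallest among those with at least 100 CPM in the other cells. The classes by primary granule genes, the Ngp division and the values within classes by hashtag were added after the data were seen. Promoter sequences came from RefSeq (GRCm38.p6). Alternatives covered the UMI minimum, number of genes, cell filters, hashtag calls, each hashtag left out, the CPM minimum, scaling and thinning.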

Additional observations from a re-analysis of the deposited data

Results flagged for a closer look

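In 45 groups of hashtag values, 7 had a highest value separated from the rest by more than Dixon's 95% criterion. That criterion was used only to flag values. Most groups reuse the same hashtags and members, so no rate by chance is set beside the 7. In experiment 1, the share of members was 0.859% in hashtag 2, and 0 to 3 members were found in each of the other hashtags. Among the 6 hashtags of experiment 2 with at least 10 members, hashtag 8 stood apart for 4 stefin-family genes, which share near-identical sequence and are not independent of each other: Stfa2l1 was at 2054 CPM, Gm5483 at 4386 CPM, BC100530 at 2220.0 CPM and Stfa1 at 2930.5 CPM in its members. In its 22 primary-poor members, 3 cells held 78.6% of the BC100530 counts and 70.4% of the Stfa1 counts, and without them these genes went from 3977 to 1036 CPM and from 5220.1 to 1893 CPM. Hashtag 4 stood apart for Mmp8, at 572 CPM, and Olfm4, at 480 CPM; it had 11 members, and 3 of its primary-poor members held all of its Mmp8 counts in that class.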

How the results depend on the processing

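The share of members was lower when 4 of the 5 genes were required, at 0.118% in experiment 1 and 2.61% in experiment 2, and among cells with 1 hashtag it was 2.80% in experiment 2. Leaving out each hashtag in turn, among cells with 1 hashtag, gave shares from 0.148% (without hashtag 2) to 0.281% in experiment 1 and from 2.22% (without hashtag 6) to 3.22% in experiment 2; counts of genes at least 4-fold higher ran from 179 to 237 and from 213 to 283, and of lower genes from 156 to 261 and from 123 to 218. The highest counts of lower genes came without hashtag 2 in experiment 1 and without hashtag 6 in experiment 2, as did the 283 higher genes of experiment 2.

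The counts of higher genes, 178 in experiment 1 and 185 in experiment 2, became 106 and 101 at a minimum of 50 CPM, 4102 and 1416 with no minimum beyond 10 UMIs, and 293 and 278 after thinning to 3000 UMIs; the mean over cells gave 279 in experiment 2. The counts of lower genes, 154 and 30, became 71 and 19 at 50 CPM and 369 and 415 with no minimum. In experiment 2 lower genes numbered 17 when the rule needed 3 UMIs, 130 among cells with 1 hashtag, 176 by the mean over cells, 10 with the rule genes left out of the totals and 194 after thinning. Thinning and CPM minimums change which genes can be counted; the other causes were not tested. The ratio of top tag to second gave 2.05% for hashtag 2 and 1.14% for hashtag 3 of experiment 2. The other 77 alternative values of these results, leave-one-out aside, stayed within their limits. No paired analysis was possible because the hashtags carry no known condition, so there were no groups to pair, and members against other cells of the same hashtag is the contrast that chose the members; those values are given without a test.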
